A study of Mus musculus with 8 samples.

Results

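The genes described here are 38 markers of cells that a sort of striatal neurons is meant to leave behind: 13 astrocyte markers, 12 microglia markers and 13 vascular markers, the last made up of 9 endothelial and 4 mural genes. They were chosen by name, as the non-control probes whose gene name in the scanner files is a member of the list, and 57 of the 55681 non-control probes met this. The samples were medium spiny neurons (MSNs), which send the inhibitory output of the striatum, sorted as Venus (+)/PI (-) cells, where PI is propidium iodide, a dye that enters dead cells. Per the labels, 4 arrays hold RNA of R6/2;Scn4b-Venus mice and 4 hold RNA of WT;Scn4b-Venus mice, called control here. All mice were male and 4 weeks old, both genotypes carry Scn4b-Venus, and approximately 4-20 ng of total RNA was extracted with the RNeasy Micro Kit. The R6/2 line, a model of Huntington's disease, carries the first exon of human huntingtin with a long CAG repeat under the human promoter, so that the transgene is not limited to MSNs, and Venus is a fluorescent protein that here reports Scn4b, a sodium channel beta subunit. The construct of Scn4b-Venus and the strain background are not given in the sources used here. The labels do not say whether the 4 samples of a genotype came from separate mice, so p-values measure the spread between these samples, which may be technical.

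Astrocytes, microglia and the cells of blood vessels lie among the neurons of the striatum. Astrocytes take up glutamate and potassium and wrap synapses and vessels. Microglia are the resident macrophages of the brain, which sense damage and clear debris, and endothelial cells with their pericytes and smooth muscle cells (the mural cells) form the vessel wall and the blood-brain barrier. Their markers are commonly read in sorted neurons as a measure of what else passed the gate. In bulk RNA, fewer cells of a type and less RNA per cell cannot be told apart.

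The series asks which genes differ between R6/2 and control MSNs. A level is the log2 of a probe's processed intensity minus that of the 75th percentile of its array, so that a probe at 0 is at the 75th percentile and a probe at -1 has an intensity 1 log2 unit lower. Levels of different probes are not compared, because each probe binds its target with its own strength. A probe counts as detected where the scanner software marked it well above background. A gene is represented by its probe with the highest mean level, among the tested probes where there are any, and is tested where that probe was detected on 4 or more of the 8 arrays. Values are listed for replicates 1 to 4 of control and then for replicates 1 to 4 of R6/2.

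On the arrays as a whole, the share of non-control probes well above background ran from 50.1% in control replicate 1 to 78.8% in R6/2 replicate 4. Its mean was 66.6% ± 11.5 (SD, n = 4) in control and 76.0% ± 2.00 in R6/2, with an exact two-sided permutation p of 0.114 over 70 assignments. Without control replicate 2, the highest control array, the difference in this share was 12.6 percentage points. Control replicate 2 (76.2%) was the only control array above any R6/2 array, so leaving it out separates the groups fully. The exact permutation p of 0.0286 follows from that choice. It is the smallest that the test can give with 1 control array left out. Without control replicate 1 the difference was 3.94 percentage points, the lowest when 1 array was left out. All 19 MSN markers examined, among them Drd1, Drd2 and Ppp1r1b, were well above background on all 8 arrays. Scn4b was lower in R6/2 by a log2 difference of -1.15 (SE 0.28), with an adjusted p of 0.558 in limma. R6/2 replicate 4 was alone on its slide, so values within the slide that holds both genotypes are those without it. The number of arrays limits the precision, and control replicate 1 stood apart: its lowest signal marked well above background was -2.78, against -4.29 to -5.56 on the other arrays.

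The probes on which the results below turn are shown by the first 30 of their 60 bases, 5′ to 3′, with mm9 coordinates of the whole probe from the array files. They are the 3 probes of Itgam, since the brightest one is a repeat, the probes of 4 microglia genes that were lowest in the same control array, and the 2 probes of Ly6c1, which gave unlike values. Capitals mark the run of CA units, and the other bases are in lower case.
Itgam, brightest probe, chr7:135261755-135261814, plus strand: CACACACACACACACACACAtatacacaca
Itgam, next probe, chr7:135260275-135260334, plus strand: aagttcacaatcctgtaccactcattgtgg
Itgam, dimmest probe, chr7:135212140-135212199, plus strand: tgttaaccagacaggtgccctctaccagtg
Cx3cr1, brightest probe, chr9:119957811-119957870, minus strand: cgtgcctagagtgtgtctatcccacttgta
Cx3cr1, other probe, chr9:119959018-119959077, minus strand: caagaatgtcttcatgcattcactgactcc
Ctss, chr3:95360245-95360304, plus strand: cctgttgtctagtgttttctaataaccatt
Trem2, chr17:48491537-48491596, plus strand: acagctggatggttgtctgtcaacttctgc
Tyrobp, chr7:31200651-31202378, plus strand: ggacccggaaacaacacattgctgagactg
Ly6c1, brightest probe, chr15:74877785-74877844, minus strand: agcagttacctgccgcgcctctgatggatt
Ly6c1, other probe, chr15:74875495-74875554, minus strand: tattatagtatcaccatccacacataagta

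The 60 bases of the Tyrobp probe are placed over more than 60 bases of genome, and the exon, intron or UTR under each probe is not given here. A run of at least 8 CA units (16 bases) stood in 34 of the 55681 non-control probes (0.0611%), and 1 of the 57 member probes, the brightest of Itgam, held one. All 34 were well above background on all 8 arrays, beside 47.9% of all probes, and their median level was 7.10 beside -2.48 over all probes. The same run read on the opposite strand stood in 71 probes (0.128%), none of them a member's, and all 71 were well above background on all 8 arrays with a median level of 8.50. Some stretch of 15 bases was shared with a probe of another gene name in 11 of the 57 member probes. The repeat probe of Itgam shared one with 48 such probes, and each of the other 10 probes, among them the brightest probes of Cx3cr1, Kdr and Slco1a4, shared one with 1.

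No marker gene passed the test for a genotype difference. Of the 38 genes, 31 had a tested probe, and 0 of these 31 had an adjusted p under 0.05 in limma over 26918 genes, where 1 gene did (0.00371%). None of the 31 had an unadjusted p under 0.05 either, beside 7.14% of all genes tested (3.68% higher and 3.46% lower in R6/2). The smallest adjusted p among the markers was 0.756, that of Aif1. The R6/2 mean was above the control mean in 18 of the 31 genes and below it in 13, where 54% of all genes tested had a positive difference. Their median log2 difference, R6/2 minus control, was 0.08, beside 0.03 over all genes tested. By cell type the median was 0.02 over 11 astrocyte genes (6 positive, 5 negative), 0.25 over 10 microglia genes (7 positive, 3 negative) and 0.01 over 10 vascular genes (5 positive, 5 negative). Groups that did not overlap were seen in 1 of the 31 genes, Itgam, beside 4.73% of all genes tested.

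**Figure D1:**
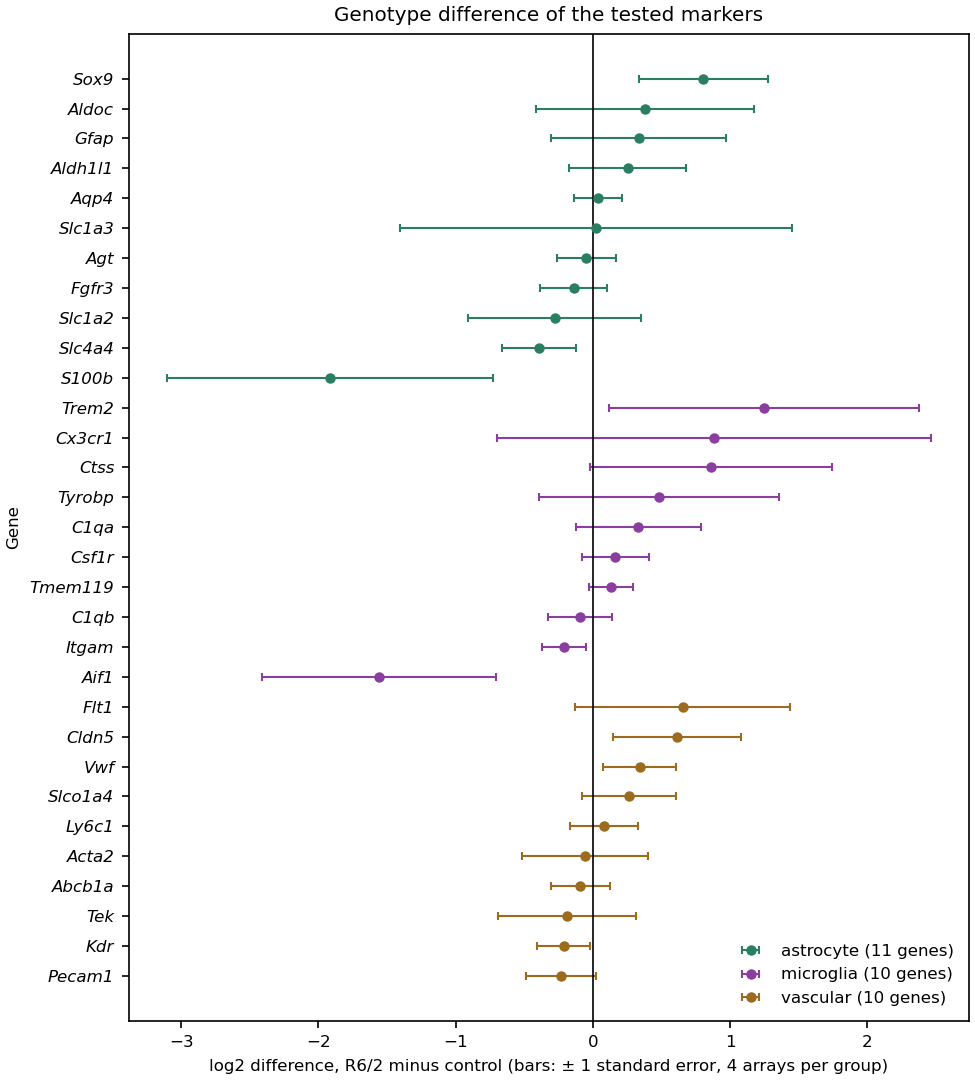
Log2 difference of each of the 31 tested marker genes, R6/2 minus control, on the horizontal axis, with bars of 1 standard error and 4 arrays per group. Genes are grouped as 11 astrocyte, 10 microglia and 10 vascular genes; the points lie on both sides of 0, from -1.92 for S100b to 1.25 for Trem2.

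Many of the markers varied widely between arrays of the same genotype. The residual SD, which is the SD left after each genotype's mean is removed, was over 1 log2 unit in 11 of the 31 genes (35.5%) and in 2884 of all 26918 genes tested. Its median was 0.73 over the markers and 0.44 over all genes tested. Among cell types the median was 0.74 for astrocyte, 1.07 for microglia and 0.45 for vascular genes. No test was made of these shares, since members of a list share arrays. The genes were not matched for level, and levels not well above background enter these SDs, such as S100b in R6/2 replicate 2 (-6.38).

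All 38 markers were well above background on at least 1 array. On all 8 arrays this held for 17 of them: 6 astrocyte, 5 microglia and 6 endothelial genes. Another 10 were well above background on every array except control replicate 1. Of the remaining 11, 4 were tested (Slc1a3, S100b, C1qa and Flt1) and 7 were seen on too few arrays to be tested (Gja1, Gjb6, P2ry12, C1qc, Pdgfrb, Rgs5 and Vtn).

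The number of the 38 markers detected was 19, 35, 29 and 33 in control and 31, 31, 30 and 31 in R6/2. Both the lowest and the highest count were thus in control arrays, replicates 1 and 2, and the R6/2 counts lay between them. The means were 29.0 ± 7.12 and 30.75 ± 0.50 (SD, n = 4 each), a difference of 1.75 genes. Without control replicate 1 the difference was -1.58 genes, and without control replicate 2 it was 3.75, so its direction rests on a single array. Control replicate 1 also had the lowest share of all probes well above background (50.1%), and its part in the marker counts was not tested. Counted instead against a common floor of -2.78, the highest of the arrays' lowest detected signals, the markers numbered 19, 30, 24 and 21 in control and 24, 24, 24 and 26 in R6/2. Control replicates 1 and 2 kept the lowest and the highest count under that floor.

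By cell type, astrocyte markers detected were 7, 13, 10 and 11 of 13 in control and 11, 10, 11 and 12 in R6/2. Microglia markers detected were 5, 10, 10 and 11 of 12 in control and 10, 11, 10 and 9 in R6/2. Endothelial markers detected were 6, 9, 8 and 9 of 9 in control and 9, 9, 8 and 9 in R6/2. The groups overlapped in all of these counts, and the lowest control value was replicate 1 in each. Mural markers detected were 1, 3, 1 and 2 of 4 in control, and 1 of 4, Acta2, in every R6/2 array, so that control replicates 1 and 3 had the same count as R6/2.

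**Figure D2:**
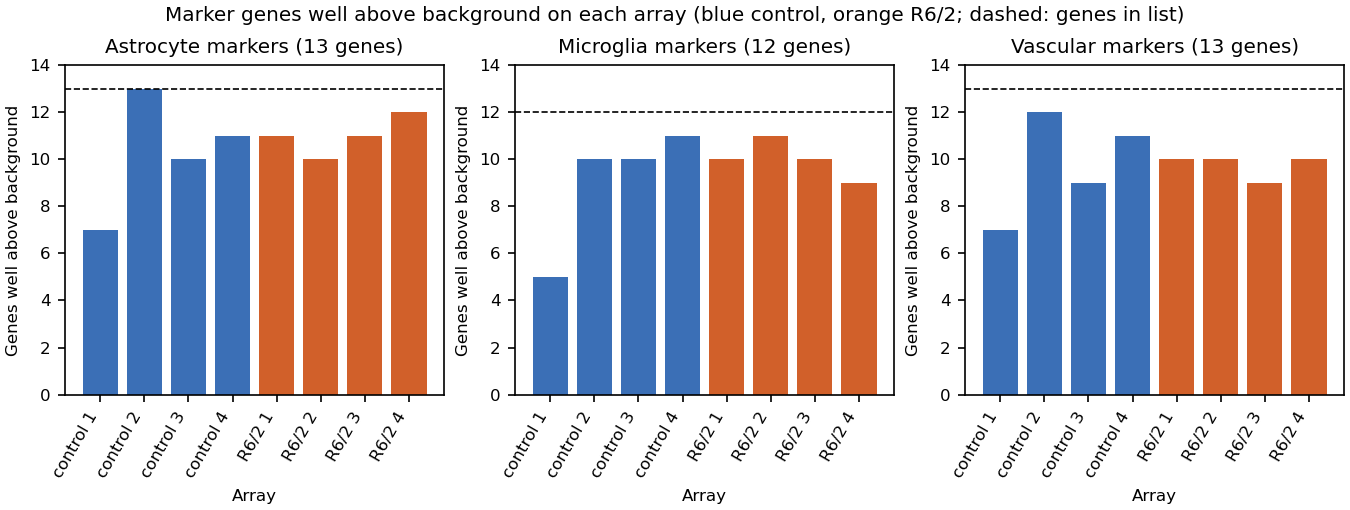
Number of marker genes well above background (vertical axis, genes) on each of the 8 arrays, in panels for 13 astrocyte, 12 microglia and 13 vascular genes; the dashed line is the number of genes in the list. Control replicate 1 has the lowest bar in each panel (7, 5 and 7 genes), and the R6/2 bars lie between 9 and 12.

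**Figure D3:**
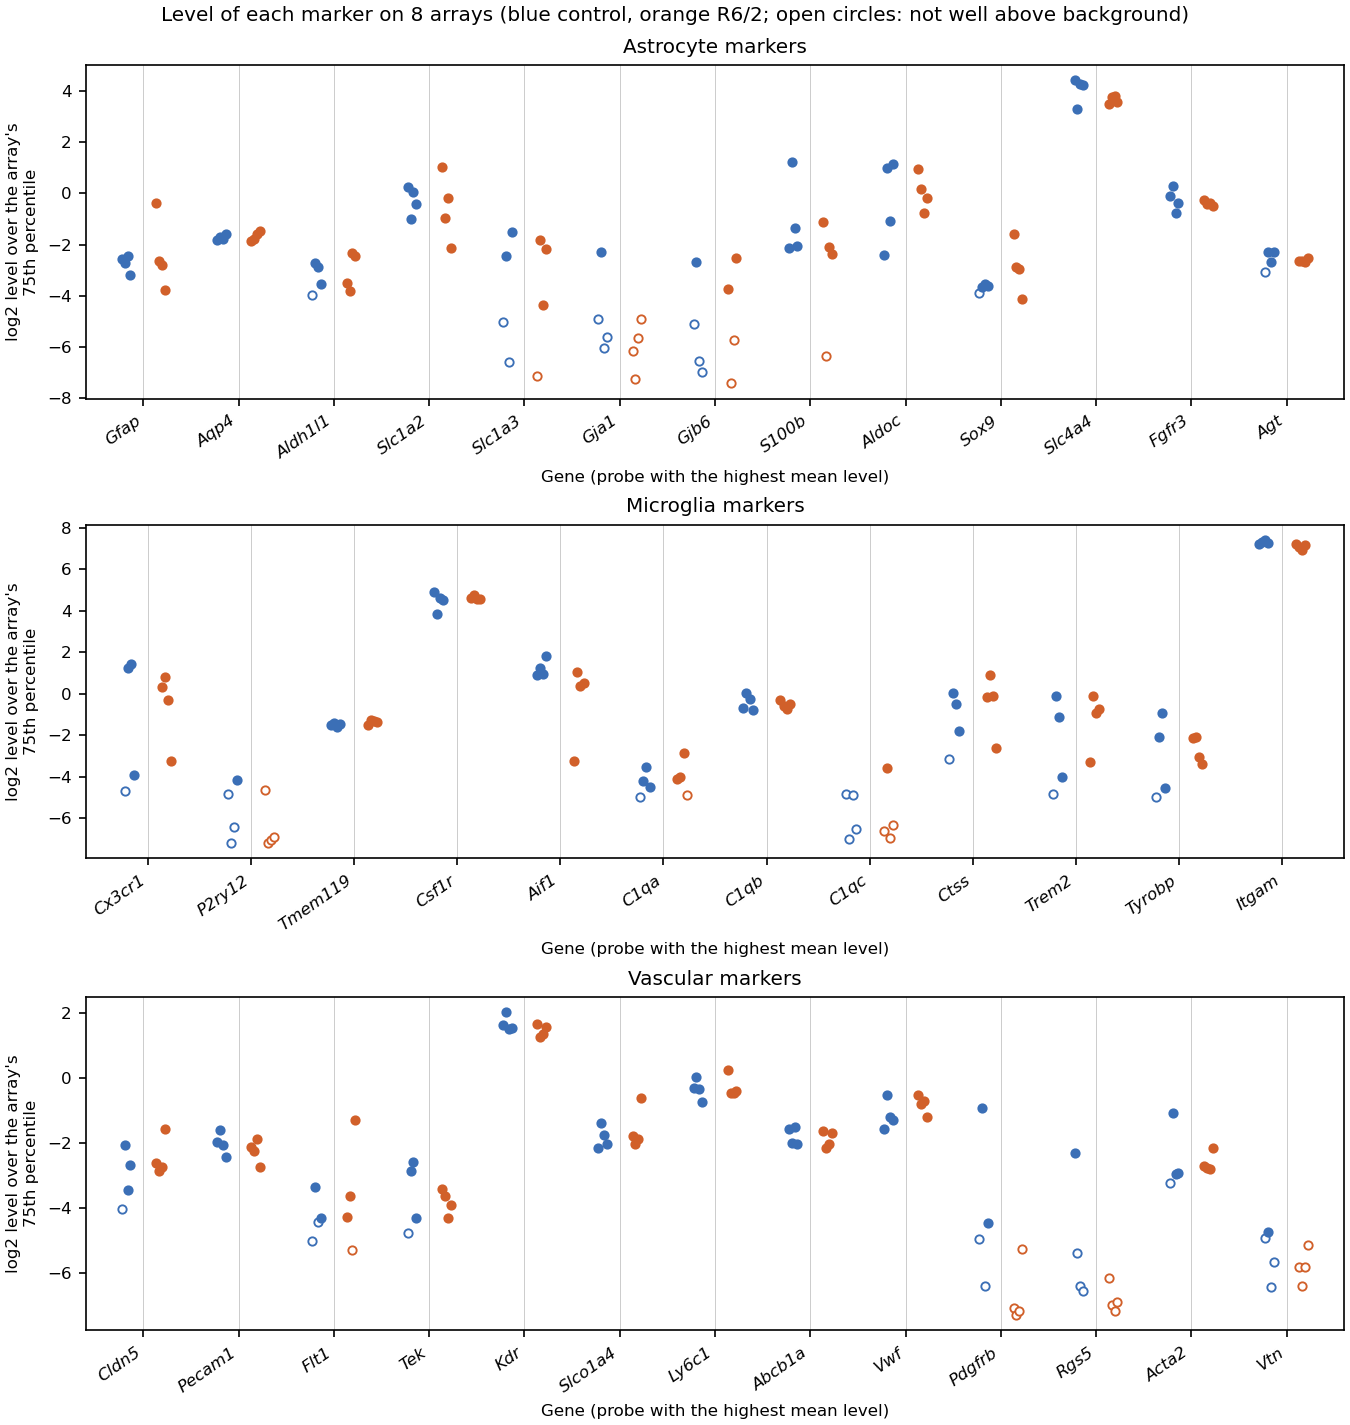
Log2 level over the array's 75th percentile (vertical axis) of each marker gene, by the probe used for it, on the 4 control arrays (blue) and the 4 R6/2 arrays (orange); open circles mark arrays where the probe was not well above background. Points of the 2 genotypes overlap for every gene except Itgam, and heights of different genes are not comparable.

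Among the astrocyte genes that define the cell type, Gfap and Aqp4 were detected on all 8 arrays. Gfap, the intermediate filament protein of astrocytes, had levels of -2.55, -2.72, -2.46 and -3.20 in control and -0.37, -2.66, -2.79 and -3.76 in R6/2. R6/2 replicate 1 was the highest of the 8 and R6/2 replicate 4 the lowest, so the control values lay inside the R6/2 range. The difference was 0.33 (SE 0.64, adjusted p = 0.930 in limma) and turned to -0.34 without R6/2 replicate 1. The other 2 probes of Gfap were not tested, with 1 and 0 arrays well above background. Aqp4, the water channel of astrocyte endfeet, had levels of -1.80, -1.71, -1.78 and -1.58 in control and -1.86, -1.79, -1.60 and -1.47 in R6/2. All 8 arrays lay within 0.39 log2 units for this probe, and 96.3% of all genes tested had a larger residual SD. Its difference was 0.04 (SE 0.17). The second Aqp4 probe spread more widely, from -2.38 in control replicate 1 to -1.13 in R6/2 replicate 1, with overlapping groups and a difference of 0.29.

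Of the astrocyte glutamate transporters, Slc1a2 had levels of 0.24, -1.02, 0.06 and -0.40 in control and 1.05, -0.97, -0.17 and -2.15 in R6/2. R6/2 held both the highest array, replicate 1, and the lowest, replicate 4. The difference was -0.28 (SE 0.63), while a second Slc1a2 probe gave 1.18 with overlapping groups. Slc1a3, the other main glutamate transporter of astrocytes, was detected on 2 control and 3 R6/2 arrays and ran from -7.13 to -1.50, a range of 5.63 log2 units. Its difference was 0.02 with a standard error of 1.43, and only 0.23% of all genes tested had a larger residual SD. The gap junction genes Gja1 and Gjb6 were detected on few arrays: Gja1 on control replicate 2 alone, and Gjb6 on control replicate 2 and on R6/2 replicates 1 and 4. Gja1 had levels of -4.91, -2.29, -6.05 and -5.64 in control and -6.17, -7.27, -5.64 and -4.90 in R6/2. No R6/2 array was well above background for Gja1, so R6/2 levels under an array's lowest detected signal were raised to that signal. By this floored ratio, the mean of the 4 control arrays was 1.41-fold that of R6/2. It is not a lower bound, because the control mean holds levels that were not well above background. Without control replicate 2 the log2 of the floored ratio, control minus R6/2, was -0.32, so a ratio above 1 rests on that array. Only R6/2 levels were raised, so the sign of this value does not show which group was higher. The groups overlapped.

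The remaining astrocyte genes split into steady and scattered ones. Slc4a4, the sodium bicarbonate cotransporter, had levels of 4.42, 3.30, 4.29 and 4.24 in control and 3.52, 3.78, 3.80 and 3.59 in R6/2. Control replicate 2 was the lowest of all 8 arrays, and the other 3 control arrays lay above every R6/2 array. The difference was -0.39 (SE 0.27, adjusted p = 0.799 in limma), and without control replicate 2 it was -0.65 with an adjusted p of 0.574. The dimmest probe of Slc4a4 read 0.69, 0.98, 0.80 and 1.07 in control and 0.23, 0.01, 0.40 and -0.17 in R6/2, and here the groups did not overlap, as in 4.57% of all tested probes. Its difference was -0.77 (SE 0.21), with an unadjusted p of 0.0053 in limma, where 7.01% of all tested probes had one under 0.05. The adjusted p over all tested probes was 0.571. The remaining Slc4a4 probe, whose coordinates overlap those of the brightest, gave -0.47 (SE 0.28) with overlapping groups, so all 3 probes had negative differences. Fgfr3, a fibroblast growth factor receptor, had levels of -0.10, 0.31, -0.77 and -0.38 in control and -0.24, -0.40, -0.39 and -0.48 in R6/2, where the R6/2 arrays lay inside the control range. Aldoc, the brain aldolase, had levels of -2.41, 1.01, -1.08 and 1.14 in control and 0.95, 0.16, -0.75 and -0.18 in R6/2. Control held both the 2 highest and the 2 lowest Aldoc arrays.

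S100b, a calcium-binding protein that astrocytes and oligodendrocytes both make, had levels of -2.12, 1.22, -1.34 and -2.05 in control and -1.13, -6.38, -2.09 and -2.36 in R6/2. The range of 7.60 log2 units runs from R6/2 replicate 2, not well above background, to control replicate 2. The difference of -1.92 (SE 1.19, adjusted p = 0.777 in limma) became -0.79 without R6/2 replicate 2 and -1.15 without control replicate 2. The mean level of 12 oligodendrocyte markers was likewise highest in control replicate 2 (1.45) and lowest in R6/2 replicate 2 (-1.65), and the part of oligodendrocyte RNA in the S100b values was not tested. Sox9, a transcription factor of astrocytes, had levels of -3.92, -3.64, -3.56 and -3.64 in control and -1.58, -2.88, -2.95 and -4.13 in R6/2. R6/2 replicates 1, 2 and 3 lay above all control arrays and R6/2 replicate 4 below them, with a difference of 0.81 (SE 0.47, adjusted p = 0.767 in limma). Without R6/2 replicate 4, the array on the other slide, the difference was 1.22 with an adjusted p of 0.739. Aldh1l1, a folate enzyme, and Agt, angiotensinogen, were detected on all arrays but control replicate 1, with overlapping groups and differences of 0.25 and -0.05.

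The residual SD was over 1 in 5 of the 10 tested microglia genes, and 4 of these were lowest in control replicate 1 and low in control replicate 4: Cx3cr1, the fractalkine receptor, Ctss, the protease cathepsin S, Trem2, a lipid-sensing receptor, and Tyrobp, its signalling adaptor. They were singled out after their values were seen. Cx3cr1 had levels of -4.70, 1.25, 1.42 and -3.91 in control and 0.32, 0.81, -0.32 and -3.24 in R6/2. Ctss had levels of -3.15, 0.03, -0.49 and -1.80 in control and -0.15, 0.91, -0.13 and -2.61 in R6/2. In both genes control replicates 1 and 4 and R6/2 replicate 4 were low, and the genotypes overlapped. Trem2 had levels of -4.84, -0.11, -1.13 and -4.03 in control and -3.32, -0.13, -0.91 and -0.77 in R6/2. Tyrobp had levels of -4.97, -2.11, -0.94 and -4.57 in control and -2.14, -2.09, -3.04 and -3.38 in R6/2. Control replicates 1 and 4 were the 2 lowest arrays for Trem2 and for Tyrobp. The R6/2 arrays did not keep 1 order: replicate 4 was the lowest of its group for Cx3cr1, Ctss and Tyrobp, whereas for Trem2 replicate 1 was.

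The mean level of these 4 genes was -4.42, -0.24, -0.28 and -3.58 in control and -1.32, -0.13, -1.10 and -2.50 in R6/2. The genes were chosen as lowest in control replicate 1 and low in control replicate 4, so their means and ranks there follow from the choice. Control replicate 1 had none of the 4 well above background, whereas each of the other 7 arrays had all 4. Over 19 further tested microglia and macrophage genes the mean level was -1.24, -0.49, -0.96 and -1.63 in control. In R6/2 it was -1.02, -0.80, -1.31 and -1.43, so control replicate 4, not control replicate 1, was the lowest array there. In each of the 4 genes control replicate 4 ranked sixth or seventh. Its share of all probes well above background (72.2%) was near that of the other arrays. Control replicate 2 and R6/2 replicate 2 ranked among the 3 highest in each of the 4 genes. The differences between genotypes were 0.88 for Cx3cr1 (SE 1.58), 0.86 for Ctss (SE 0.88), 1.25 for Trem2 (SE 1.13) and 0.48 for Tyrobp (SE 0.87), with adjusted p-values in limma of 0.927, 0.872, 0.852 and 0.928. Without control replicate 1 they were -0.19, 0.26, 0.47 and -0.13. Only 0.10% of all genes tested had a larger residual SD than Cx3cr1 (2.65), and 1.05% a larger one than Trem2.

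The second Cx3cr1 probe had levels of -4.86, -4.16, -3.97 and -4.40 in control and -3.03, -4.37, -4.43 and -6.12 in R6/2. All 4 control arrays lay between -4.86 and -3.97 here, whereas the first probe parted control replicates 2 and 3 from control replicates 1 and 4. The brightest Cx3cr1 probe is one of those that share a stretch of 15 bases with a probe of another name, and the part of that probe's target in its values was not tested. Csf1r, the receptor for colony stimulating factor that microglia need to survive, differed between its probes. Its brightest probe had levels of 4.88, 3.82, 4.61 and 4.50 in control and 4.60, 4.77, 4.55 and 4.54 in R6/2, where control replicate 2 was the lowest of 8 and the other arrays lay close together. Its second probe had levels of -2.03, 0.83, 0.34 and -2.35 in control and -2.30, 0.92, -1.90 and -1.58 in R6/2, with control replicates 2 and 3 and R6/2 replicate 2 standing above the rest. The dimmest Csf1r probe was highest in control replicate 2 (-0.24) and R6/2 replicate 1 (-1.06). The 3 probes gave differences of 0.16, -0.41 and -0.23, with overlapping groups in each.

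**Figure D4:**
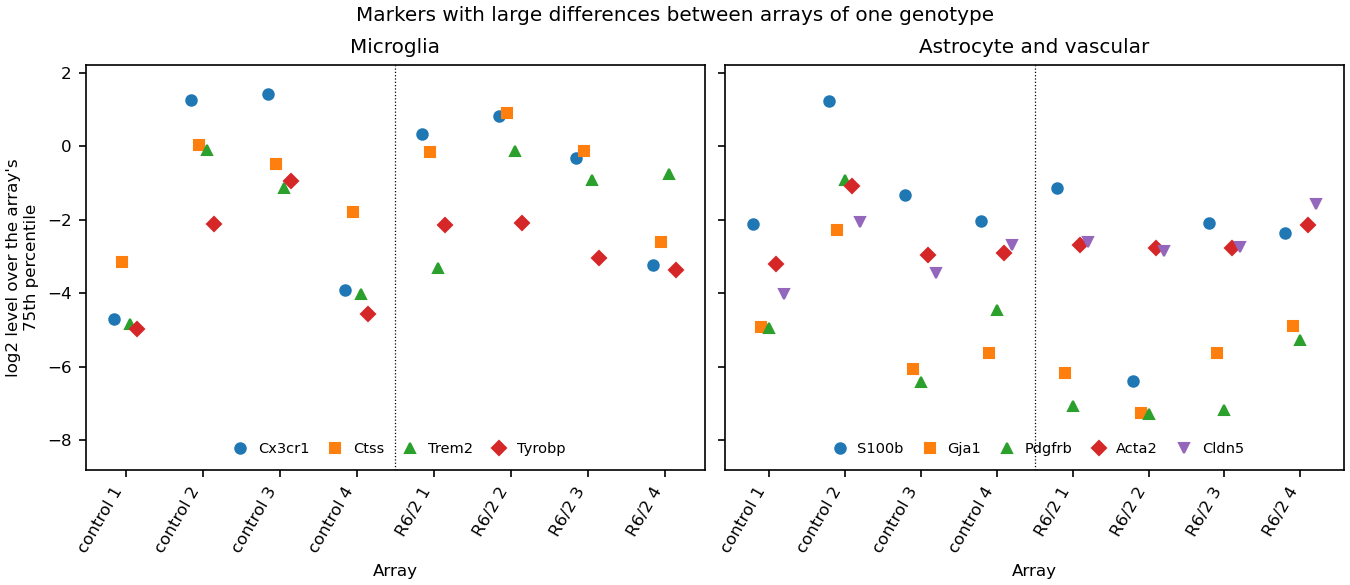
Log2 level over the array's 75th percentile (vertical axis) on each array (horizontal axis) for 4 microglia genes at the left and for 5 astrocyte and vascular genes at the right; a dotted line parts control from R6/2. Cx3cr1, Ctss, Trem2 and Tyrobp are low together in control replicate 1 (mean -4.42) and control replicate 4 (mean -3.58), and S100b, Gja1, Pdgfrb and Acta2 are each highest in control replicate 2.

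The remaining microglia markers are given by array as well, with no test of whether they move with these 4. Tmem119, a membrane protein typical of microglia, had levels of -1.53, -1.40, -1.61 and -1.48 in control and -1.54, -1.27, -1.31 and -1.37 in R6/2. All 8 arrays lay within 0.34 log2 units, and 99.1% of all genes tested had a larger residual SD. C1qb, a chain of complement C1q, had levels of -0.72, 0.00, -0.25 and -0.79 in control and -0.30, -0.58, -0.72 and -0.53 in R6/2, with overlapping groups and a difference of -0.09. Its 2 highest arrays, control replicates 2 and 3, were also high for the 4 genes above. Of the other chains, C1qa was detected on 3 arrays of each genotype, with levels from -4.98 to -2.87, and C1qc on R6/2 replicate 2 alone. P2ry12, the ADP receptor that marks microglia at rest, had levels of -4.84, -7.19, -6.44 and -4.19 in control and -4.65, -7.21, -7.05 and -6.90 in R6/2. It was well above background on 1 of 8 arrays, control replicate 4, which was among the lowest for the 4 genes above. Aif1, an actin-binding protein of microglia, had levels of 0.91, 1.25, 0.93 and 1.81 in control and -3.24, 1.02, 0.35 and 0.52 in R6/2. R6/2 replicate 1 lay far under the other arrays, and the difference of -1.56 (SE 0.85, adjusted p = 0.756 in limma) became -0.59 without it.

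Itgam, the integrin chain also known as CD11b, was the one tested marker whose groups did not overlap. Its brightest probe had levels of 7.19, 7.31, 7.39 and 7.25 in control and 7.19, 7.06, 6.92 and 7.15 in R6/2. The highest R6/2 array and the lowest control array both read 7.19 after rounding, and all 8 lay within 0.47 log2 units. The difference was -0.21 (SE 0.16, adjusted p = 0.818 in limma), and 2.57% of all genes tested had non-overlapping groups with R6/2 lower. This is the probe that opens with the CA repeat printed above. The next probe, without the repeat, had levels of -0.43, -0.33, -0.71 and -0.78 in control and -0.62, -0.93, -0.91 and -0.02 in R6/2. It overlapped between genotypes and gave a difference of -0.06 (SE 0.26). The dimmest probe had levels of -2.93, -2.06, -3.55 and -2.92 in control and -2.68, -2.88, -2.90 and -1.98 in R6/2, with overlapping groups and a difference of 0.26 (SE 0.35). The separation of the groups was thus seen in 1 of 3 Itgam probes.

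All 9 endothelial markers were tested, with a median residual SD of 0.37. Cldn5, the tight junction claudin of brain endothelium, had levels of -4.03, -2.06, -3.45 and -2.68 in control and -2.62, -2.85, -2.74 and -1.57 in R6/2. It was not well above background in control replicate 1, and R6/2 replicate 4 was the highest of 8. The difference was 0.61 (SE 0.46, adjusted p = 0.813 in limma), 0.32 without R6/2 replicate 4 and 0.29 without control replicate 1. Pecam1, an adhesion molecule of endothelial junctions, had levels of -1.96, -1.61, -2.06 and -2.41 in control and -2.12, -2.24, -1.87 and -2.74 in R6/2, with overlapping groups and a difference of -0.23 (SE 0.26).

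Of the receptors for vascular growth factors, Kdr had levels of 1.63, 2.03, 1.51 and 1.55 in control and 1.66, 1.27, 1.37 and 1.56 in R6/2, which overlapped. Another Kdr probe was well above background on 1 array of each genotype. Flt1 was detected on 2 control and 3 R6/2 arrays and was highest in R6/2 replicate 4, at -1.29, with all other arrays between -5.30 and -3.35. Its difference of 0.65 (SE 0.78) became -0.12 without that array. Tek, the angiopoietin receptor, was detected on all arrays but control replicate 1, with a difference of -0.19.

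The barrier transporters Slco1a4 and Abcb1a and the clotting protein Vwf were well above background on all 8 arrays. Slco1a4, an organic anion transporter, had levels of -2.15, -1.38, -1.75 and -2.03 in control and -1.78, -2.01, -1.86 and -0.60 in R6/2. R6/2 replicate 4 was again the highest, and the difference of 0.26 (SE 0.34) became -0.06 without it. Abcb1a, the efflux pump P-glycoprotein, had levels of -1.56, -1.99, -1.50 and -2.02 in control and -1.61, -2.14, -2.01 and -1.67 in R6/2, with overlapping groups and a difference of -0.09. Vwf had levels of -1.55, -0.52, -1.18 and -1.30 in control and -0.51, -0.78, -0.70 and -1.20 in R6/2. Its groups overlapped, and the difference was 0.34 (SE 0.27) by this probe and -0.10 by the other.

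Ly6c1, a surface protein of brain endothelium with a near-identical neighbour in its gene family, had levels of -0.30, 0.04, -0.35 and -0.75 in control and 0.26, -0.44, -0.46 and -0.39 in R6/2. These overlapped, with a difference of 0.08 (SE 0.25). The other Ly6c1 probe had levels of -4.58, -1.46, -1.38 and -3.51 in control and -4.07, -4.81, -4.30 and -5.22 in R6/2. Control replicates 2 and 3 were the 2 highest arrays, and control replicate 1 lay within the R6/2 range. Its difference was -1.87 (SE 0.72), with an unadjusted p of 0.030 in limma, where 7.01% of all tested probes had one under 0.05, and an adjusted p of 0.690 over all tested probes. Which family members each probe binds is not known here, so the 2 values are uncertain as measures of Ly6c1 alone.

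Of the 4 mural markers, 3 were detected on too few arrays to be tested. Pdgfrb, the growth factor receptor that defines pericytes, had levels of -4.94, -0.91, -6.41 and -4.47 in control and -7.07, -7.29, -7.17 and -5.27 in R6/2. It was well above background in control replicates 2 and 4 and in no R6/2 array, and R6/2 replicate 4 lay above control replicate 3. Its mean in control was 2.18-fold that of R6/2 by the floored ratio used for Gja1. This is no lower bound either, since control replicates 1 and 3 were not well above background. The ratio rests on control replicate 2, the highest of the 8 arrays, and was 1.03-fold without it. Rgs5, a G protein regulator of pericytes, was detected in control replicate 1 alone, at -2.30, with the other 7 arrays between -7.17 and -5.39. Its floored ratio was 1.13-fold, and a ratio above 1 rests on control replicate 1. Without that array the log2 of the ratio, control minus R6/2, was -0.78. Only R6/2 levels were raised, so this sign does not show which group was higher. Vtn, vitronectin, was detected in control replicate 2 alone. Acta2, smooth muscle actin, had levels of -3.21, -1.08, -2.96 and -2.92 in control and -2.69, -2.78, -2.78 and -2.14 in R6/2. It was detected on every array but control replicate 1, control replicate 2 was the highest, and the difference was -0.06 (SE 0.46).

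Across the 38 genes, control replicate 2 held the highest level in 11 and control replicate 1 the lowest in 13. The mean level of the 11 tested astrocyte genes was -1.85, -0.98, -1.71 and -1.20 in control and -1.18, -1.77, -1.48 and -1.65 in R6/2. For the 10 microglia genes it was -1.19, 0.58, 0.64 and -0.75 in control and -0.27, 0.65, 0.25 and -0.46 in R6/2. For the 10 vascular genes it was -2.29, -1.28, -1.87 and -2.11 in control and -1.71, -1.92, -2.06 and -1.40 in R6/2. Control replicate 1 was the lowest array in all of these means, control replicate 2 the highest for astrocyte and vascular genes, and the genotypes overlapped in each. The mean over 19 MSN markers ran between 4.81 and 5.18 in control and between 4.37 and 4.62 in R6/2, which did not overlap. Control replicate 2 was the lowest of its group at 4.81. All 19 MSN markers had negative differences, with a median of -0.53. In limma, 9 of them were lower in R6/2 at an unadjusted p under 0.05, beside 3.46% of all genes tested. At an adjusted p under 0.05 there were 0.

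Other genes of the same cell types, taken from lists that hold none of the 38, gave 0 adjusted p-values under 0.05 in limma. Of 28 further astrocyte genes, 24 were tested, 4 had an unadjusted p under 0.05 in limma with R6/2 higher (3.68% of all genes tested) and 0 with R6/2 lower, and the median difference was 0.16. Fabp7, a fatty acid binding protein of astrocytes and radial glia, had levels of -0.83, -0.49, -0.43 and -1.10 in control and 2.40, 0.95, 0.64 and 0.44 in R6/2. Every R6/2 array lay above every control array, as in 2.16% of all genes tested, with a difference of 1.82 (SE 0.42, adjusted p = 0.511 in limma). Cst3, the secreted protease inhibitor cystatin C, also had separate groups, at 2.26 to 3.01 in control and 3.11 to 3.43 in R6/2, with a difference of 0.57. Mlc1, an astrocyte endfoot protein, had a difference of 1.35 with overlapping groups.

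Of all genes tested, 3.68% were higher and 3.46% lower in R6/2 at an unadjusted p under 0.05 in limma. Groups did not overlap with R6/2 higher in 2.16% and with R6/2 lower in 2.57%. Fabp7, Cst3 and Mlc1 above and the genes named below had the smallest p-values of their lists, so their separation is a product of that choice as well. Of 26 further microglia and macrophage genes, 19 were tested, with 1 higher and 2 lower in R6/2 at an unadjusted p under 0.05 and a median difference of -0.05. Cd163, a scavenger receptor of macrophages at vessels and meninges, had levels of -3.21 to -2.47 in control and -2.41 to -0.86 in R6/2, which did not overlap. The immune receptor gene Fcer1g had levels of -2.30 to -0.81 in control and -2.76 to -1.95 in R6/2, and Fcgr3 had a difference of -0.73, both with overlapping groups. Of 24 further endothelial genes, 16 were tested, with 0 higher and 1 lower, and a median of -0.14. That 1 was Esam, an endothelial adhesion molecule, with a difference of -1.82 and groups that did not overlap. Its level in R6/2 replicate 1 was -5.88, far under the other R6/2 arrays (-3.20 to -2.67), and 3 R6/2 arrays were well above background. Of 20 further mural and fibroblast genes, 14 were tested, with 1 higher and 2 lower, and a median of -0.05. Dcn, the matrix proteoglycan decorin, had levels of -1.95, -4.34, -1.11 and -2.73 in control and -5.33, -4.95, -4.73 and -5.88 in R6/2. Its groups did not overlap, it was well above background on 4 control arrays and 1 R6/2 array, and the difference was -2.69 (SE 0.63, adjusted p = 0.511 in limma). Tagln, a smooth muscle protein, had a difference of -0.70 with separate groups. Notch3, a mural receptor, had levels of -4.23 to -3.05 in control and -3.40 to -1.86 in R6/2, which overlapped.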

How the data were processed

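RNA of sorted MSNs was measured on 8 Agilent arrays with 1 dye (Cy3), 4 per genotype. Per the file headers, the authors' scanner files hold spot intensity from Agilent Feature Extraction 10.7.3.1, background-subtracted by spatial detrending with surrogate values for dim spots and not scaled between arrays. The same deposited files hold 0 or 1 marks of the software for spots well above background, used here for detection. The deposited whole-series table holds the authors' normalized log2 values, used only as an alternative, and 16 other columns of per-sample values that were not used. A single unreadable line of the R6/2 replicate 3 file was dropped, which left 62974 of 62976 spots. The share of dim spots differs between arrays, and surrogate values make low levels uncertain.

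Processed intensity was taken to log2 without outlier spots, replicate spots were averaged, and the 75th percentile of the array's non-control probes was subtracted. Tests used the 41383 probes detected on 4 or more arrays, which gave 26918 genes and transcripts by the tested probe with the highest mean level. Names were updated through accession (26762 probes), symbol (3819) or older symbol (639), and 24461 kept the name in the file. Differences, R6/2 minus control, come from lmFit and eBayes in limma 3.58.1 under R 4.3.3, tested two-sided. The p-values were adjusted by the Benjamini-Hochberg method over the whole table, with 0.05 as the threshold; the fit was tested on simulated data. Array shares were compared by an exact permutation test.

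All 38 genes are named. Values on every array are given for those detected on all 8 arrays, with an unadjusted p under 0.05, with groups that do not overlap or with detection differing by 2 arrays or more, for the markers Gfap, Aqp4, Cx3cr1, P2ry12, Cldn5, Pecam1 and Pdgfrb, and for Slc1a3, Gja1, S100b, Sox9, Ctss, Trem2, Tyrobp, Flt1, Rgs5, Acta2 and single further probes, in whole or in part, chosen after their values were seen. Of the 4 lists of other genes, up to 3 with the smallest p are named. The members and lists were chosen with earlier results of these data known. Alternatives were other background corrections, scalings, filters, probe choices, tests, the replicate block and leaving out each array.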

Additional observations from a re-analysis of the deposited data

Results flagged for a closer look

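In 86 sets of 4 arrays (a gene's levels, or a count of detected genes, in 1 genotype), 11 had a highest or lowest array whose gap to the nearest other array took up nearly the whole range of the set. Chance gives about 1 in 20 such sets, here 4.3, if the sets are independent. These sets share arrays, and some counts are part of others, so 11 beside 4.3 does not show an excess. None of these was tested for a cause.

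In control, Slc4a4 was low in replicate 2 (3.30), Acta2 was high in replicate 2 (-1.08), and the number of microglia genes well above background was low in replicate 1 (5 genes). In R6/2 replicate 1, P2ry12 was high (-4.65, not well above background), Aif1 was low (-3.24) and Ly6c1 was high (0.26). In R6/2 replicate 4, which was alone on its slide, Slco1a4 (-0.60), Acta2 (-2.14) and Pdgfrb (-5.27, not well above background) were high. In R6/2 replicate 3 the counts of vascular genes (9) and of all 38 markers (30) well above background were lowest, but the other 3 arrays held equal counts, so that the gap is 1 gene in each case.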

How the results depend on the processing

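The count of markers past an adjusted p of 0.05 in limma was 0 under every alternative, the replicate block and leaving out each array included. Over 31 genes and 17 alternatives (513 fitted values, where a filter left the gene in), the smallest adjusted p was 0.574, the sign changed 38 times in 18 genes, and 13 genes kept their sign. The count of markers at an unadjusted p under 0.05, 0 as reported, was 1 with no filter on dim probes (Pdgfrb, otherwise untested: -2.52, SE 1.08, adjusted p = 0.818 in limma), 1 within the slide that holds both genotypes (Sox9), 1 with the mean of a gene's tested probes (Slc4a4), 1 with an unpaired t-test per gene (Itgam), and 0 to 2 when 1 array was left out, the 2 being Slc4a4 and Vwf without control replicate 2. With the replicate block, the replicate number as a term, it was 0. Each replicate number holds 1 array per genotype, so the block cannot change a marker's difference, and neither can the t-test. Their values among the 513 thus could not change sign. The slide that holds both genotypes has the same arrays as leaving out R6/2 replicate 4, so those values are counted 2 times. Same-numbered samples did not deviate together (correlations from -0.05 to 0.03) and no label ties the numbers, so they were not taken as pairs.

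Over all genes, 1 passed as reported, and 7 passed with normexp background correction, 8 with quantile normalization, 6 with probes well above background on all arrays, 5 with the mean of a gene's probes, 0 with the replicate block, 0 within the slide, 0 with the t-test and 0 to 3 when 1 array was left out. Class medians ranged from -0.11 to 0.08 (astrocyte), -0.01 to 0.41 (microglia) and -0.12 to 0.31 (vascular) when 1 array was left out. The microglia median of 0.25 was 0.05 with normexp background correction and 0.42 with quantile normalization. It turned to -0.09 over the 5 genes left with probes well above background on all arrays. The difference in detected markers ranged from -1.58 to 3.75 genes and that in the share of probes well above background from 3.94 to 12.6 percentage points, the last without control replicate 2. With the mean of the tested probes, Ly6c1 was -0.89 and Itgam 0.00. The cause of these shifts was not tested. Every tested probe, the common floor, Itgam without the repeat and floored ratios without the highest array were alternatives chosen after seeing the data. Signal over background limits the 7 untested genes and control replicate 1.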
